A study of Mus musculus with 16 samples.

Results

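Muscle fibers isolated from the extensor digitorum longus (EDL) of sham-operated mice were compared with whole tibialis anterior (TA) of sham-operated mice, across all genes of the count table. The libraries were chosen by their sample labels alone, 4 of sham fibers and 4 of sham whole muscle, which is 8 of the 16 libraries of the series. The series was made to follow the muscle fiber and its stem cell niche after the nerve is lost, and its other 8 libraries came from the same preparations 21 days after sciatic nerve transection (DEN).

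Both sham groups came from male C57BL/6J mice aged 2 to 6 months with no transgene, in which the sciatic nerve was located and left uncut 21 days before the muscle was taken. For the fiber group, the EDL was digested with collagenase at 37 °C for 60 to 90 minutes and triturated, and 50 to 100 single fibers that had not contracted went straight into TRIzol. For the whole muscle group, the TA was taken into TRIzol undigested, with its vessels, nerve twigs, connective tissue and immune cells. Muscle, enzyme treatment and cell content therefore changed together between the groups and cannot be told apart here. Whether an EDL and a TA were taken from 1 mouse is not given in the sources used here. The libraries were therefore analysed as unpaired, and p values measured only the spread between them, which may in part be technical. In bulk RNA, fewer cells of a type and less RNA per cell cannot be told apart either.

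An adult muscle fiber is a syncytium that keeps most of its RNA in sarcomere, calcium handling and energy genes, while the cells around it contribute their own marker genes. Immediate early genes such as those of the Fos, Jun and Egr families are transcribed within minutes of a stimulus without new protein synthesis, and heat shock genes are induced by the factor HSF1 when proteins unfold. EDL and TA are both fast hindlimb muscles of the anterior compartment that differ in size, position and fiber composition.

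The promoter windows of 4 genes are printed here because they belong to genes at the upper end of the comparison and because each holds a motif of an inducible pathway. Each window runs from 250 bases before to 50 after the RefSeq start (GRCm38.p6), is written 5′ to 3′ on the strand of the gene, and has the motif matches in capitals. The windows lie at chr17:34959189-34959488 on the minus strand for Hspa1b, chr5:30012864-30013163 on the plus strand for Il6, chr5:90890995-90891294 on the plus strand for Cxcl1 and chr8:94172368-94172667 on the plus strand for Mt2.
Hspa1b: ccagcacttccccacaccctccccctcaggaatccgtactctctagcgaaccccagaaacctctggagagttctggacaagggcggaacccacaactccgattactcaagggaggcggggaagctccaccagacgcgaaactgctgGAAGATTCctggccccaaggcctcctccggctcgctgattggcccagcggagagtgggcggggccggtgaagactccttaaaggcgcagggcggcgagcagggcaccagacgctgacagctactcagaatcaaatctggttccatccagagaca
Il6: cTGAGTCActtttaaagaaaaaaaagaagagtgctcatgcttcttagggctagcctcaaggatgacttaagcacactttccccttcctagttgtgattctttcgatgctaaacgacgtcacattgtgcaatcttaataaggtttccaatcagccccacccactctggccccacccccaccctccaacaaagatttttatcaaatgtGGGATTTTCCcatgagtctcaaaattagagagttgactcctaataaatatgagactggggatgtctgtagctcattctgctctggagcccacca
Cxcl1: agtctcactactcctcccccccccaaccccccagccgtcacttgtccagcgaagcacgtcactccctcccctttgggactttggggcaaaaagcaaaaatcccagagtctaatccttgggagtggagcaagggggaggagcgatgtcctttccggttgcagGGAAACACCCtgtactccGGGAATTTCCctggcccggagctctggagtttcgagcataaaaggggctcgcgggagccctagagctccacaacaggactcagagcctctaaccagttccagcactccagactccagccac
Mt2: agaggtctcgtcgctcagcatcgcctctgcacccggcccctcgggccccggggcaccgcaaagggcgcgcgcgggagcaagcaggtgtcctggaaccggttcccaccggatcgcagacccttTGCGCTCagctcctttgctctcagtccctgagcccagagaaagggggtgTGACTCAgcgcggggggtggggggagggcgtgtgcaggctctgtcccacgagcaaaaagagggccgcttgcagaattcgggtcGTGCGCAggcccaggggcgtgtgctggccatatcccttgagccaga

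The motifs searched, on both strands, were GAANNTTC (heat shock element), TGACGTCA (cAMP response element), TGANTCA (AP-1 site), TGCGCNC (metal response element), GGG, any 2 bases and TTTCC (NF-kappaB site) and the CArG box of serum response factor. Counted from base 1 of the window, Hspa1b held a heat shock element at bases 147 to 154. Il6 held an AP-1 site at bases 2 to 8 and an NF-kappaB site at 207 to 216. Cxcl1 held NF-kappaB sites at bases 162 to 171 and 180 to 189. Mt2 held metal response elements at 123 to 129 and 255 to 261 and an AP-1 site at 172 to 178. No match overlapped another. Among 32817 RefSeq promoter windows of this length, the heat shock element was present in 7.86%, the AP-1 site in 7.81%, the metal response element in 15.4%, the NF-kappaB site and the CArG box in 1.63% each, and the cAMP response element in 1.79%. The windows of Fos, Fosb and Junb held none of the 6 motifs, which says only that these letters were not there.

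The 8 libraries held between 47570214 and 62297405 counts. Spearman correlations across genes were 0.988 to 0.996 between libraries of a group and 0.9499 to 0.9661 between the groups, and genes of a library are not independent replicates. Mitochondrially encoded genes took 11.9% to 18% of the counts in fibers and 12.2% to 14.8% in whole muscle. Fiber replicate 3 stood apart from the other fibers in tendon and matrix genes and replicate 1 of each group in hemoglobin genes, and lists that rest on them are given with and without them.

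Of 16005 genes tested, 7809 (48.8%) differed between fibers and whole muscle at an adjusted p below 0.05 (edgeR quasi-likelihood test, Benjamini-Hochberg over all tested genes). In fibers, 4088 genes (25.5%) were higher and 3721 (23.2%) lower, and 6768 genes (42.3%) had RPM values (reads scaled to the library's reads in genes) that did not overlap between the groups. Changes upward were larger. The median log2 fold change, always given as fibers over whole muscle, was 0.86 among genes called higher and -0.48 among genes called lower, and 316 genes were called higher against 22 lower at an absolute log2 fold change of 3 or more. Genes called higher took 17.9% ± 1.23 (SD, n = 4) of all counts in fibers and 9.37% ± 0.21 in whole muscle, whereas genes called lower took 19.99% ± 1.13 and 27.9% ± 0.30. The median over all tested genes was 0.00 on the log2 scale (0.0026), which is the reference for the median of each list below. For the members called in a list, the reference is 25.5% higher and 23.2% lower. Where a list had no member called in a direction by edgeR, DESeq2 called none there either, and at most 1 member had an unadjusted p below 0.05.

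The AP-1 list, of immediate early factors, had the highest median of the 39 lists. All 10 tested members of the AP-1 list were higher in fibers, with a median log2 fold change of 6.30, and their summed level was 4999.7 to 5938 RPM in fibers against 141 to 234 RPM in whole muscle. The remaining listed member, Batf, was too low to test. Fos (ENSMUSG00000021250, chr12:85473890-85477273), which pairs with Jun proteins to form AP-1, was at 1491, 1720.2, 1642 and 1489 RPM in the 4 fiber libraries and at 24.4, 4.08, 4.49 and 4.51 RPM in the 4 of whole muscle, log2 fold change 7.39 ± 0.66 (SE), adjusted p = 1.7e-05. Whole muscle replicate 1 was the highest of its group and still far below every fiber library. Fosb (ENSMUSG00000003545, chr7:19302696-19310051), its close relative, was at 329, 528, 679 and 517 RPM against 0.775, 0.462, 0.385 and 0.795 RPM, log2 fold change 9.68 ± 0.28 (SE), adjusted p = 2.33e-08. Junb, an AP-1 partner that maintains fiber size in mouse muscle, was at 1021, 1366, 1068 and 991 RPM against 11.8, 9.29, 6.00 and 7.65 RPM, log2 fold change 6.98 ± 0.23 (SE), adjusted p = 4.33e-08. The groups did not overlap for any of these genes, which was a condition of the rule that named Fosb. Atf3, a stress-induced repressor of the same superfamily, was at 702, 618, 721 and 593 RPM against 6.89, 2.48, 3.16 and 2.82 RPM, log2 fold change 7.41 ± 0.33 (SE), adjusted p = 3.39e-07.

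The Egr, Nr4a, Klf and Ier list had 17 of 18 members higher and 1 lower, with a median of 3.91. Egr1, a zinc finger factor of the serum response, was at 1525, 1773, 1553 and 1231 RPM in fibers and 16.0, 19.8, 2.50 and 5.47 RPM in whole muscle, log2 fold change 7.11 ± 0.63 (SE), adjusted p = 1.57e-05. Egr2, which also drives myelination in Schwann cells, was at 28.5, 52.2, 58.1 and 58.4 RPM against 0.505, 0.357, 0.241 and 0.315 RPM. Egr4 had 1 count over the 4 whole muscle libraries, so that only its level in fibers is given, 1.09, 1.07, 1.53 and 2.42 RPM. The member that was lower was Srf, the serum response factor itself, at 59.5, 78.3, 69.2 and 67.3 RPM against 86.5, 84.3, 90.004 and 83.6 RPM, log2 fold change -0.36 ± 0.07 (SE), adjusted p = 0.00172. The transcript of the factor and those of the early genes that it is known to activate thus lay on opposite sides of 0. The activity of the factor was not measured.

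Early response inhibitors and effectors had 28 of 30 members higher and 1 lower, with a median of 2.88. Ptgs2 (cyclooxygenase 2) was at 12.9, 23.8, 41.9 and 13.5 RPM against 0.0901, 0.0631, 0.0642 and 0.0994 RPM, log2 fold change 8.09 ± 0.52 (SE), adjusted p = 2.38e-06. Btg2, an antiproliferative gene and the member with the most RPM over the 8 libraries, was at 819, 1073, 773 and 702 RPM against 29.4, 14.1, 15.6 and 15.0 RPM. Rrad, a small GTPase that inhibits calcium channels, was at 221, 309, 116 and 84.0 RPM against 2.07, 1.16, 1.03 and 1.56 RPM, log2 fold change 6.96 ± 0.50 (SE), adjusted p = 4.38e-06. For Rrad the fiber libraries split, with replicates 1 and 2 above replicates 3 and 4. Dusp8, a phosphatase of stress kinases, was the member that fell, at 61.7, 67.8, 64.1 and 52.5 RPM against 88.2, 77.9, 76.6 and 69.7 RPM.

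**Figure D1:**
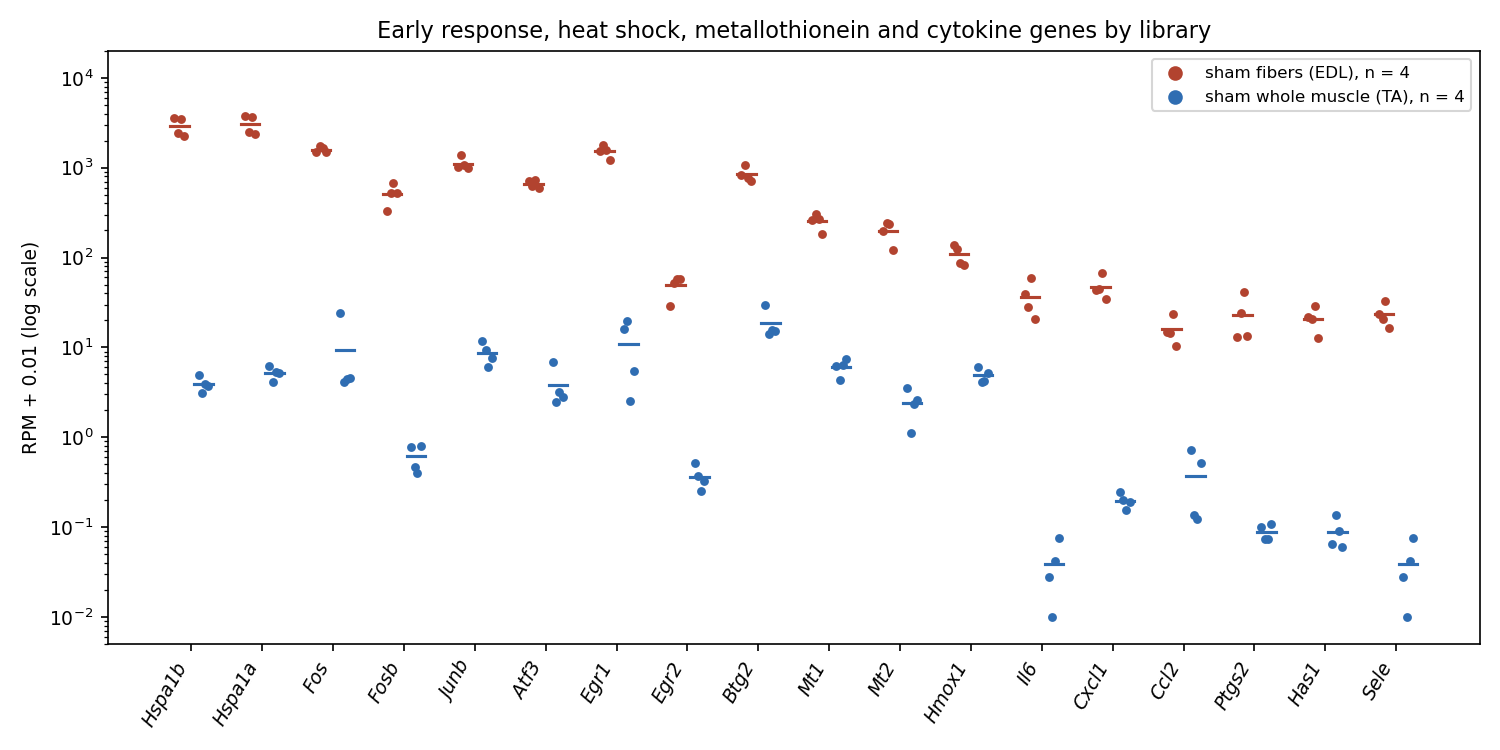
Level of 18 early response, heat shock, metallothionein and cytokine genes in each library, in RPM + 0.01 on a log scale, with points for libraries (4 per group) and a bar for the group mean. No fiber library overlaps a whole muscle library for any gene shown, and Hspa1b runs from 2239 to 3608 RPM in fibers against 3.07 to 4.96 RPM in whole muscle. Genes that were named for a large change were required not to overlap.

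Heat shock and chaperone genes were higher for 21 of 26 members and lower for none, with a median log2 fold change of 1.02. Their summed level was 13212 to 17392 RPM in fibers and 4346 to 4800.1 RPM in whole muscle. Hspa1b (ENSMUSG00000090877, chr17:34956436-34959238), the inducible HSP70, was at 3608, 2401, 3505 and 2239 RPM in fibers against 4.96, 3.07, 3.88 and 3.66 RPM in whole muscle, log2 fold change 9.54 ± 0.28 (SE), adjusted p = 2.33e-08. Its neighbour Hspa1a encodes a nearly identical protein, and reads of the pair may have been split between them. Hspa1a was at 3751, 2496, 3663 and 2356 RPM against 6.18, 4.14, 5.31 and 5.17 RPM. Fiber replicates 1 and 3 were higher than replicates 2 and 4 for both genes.

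The co-chaperone Dnajb1 had a mean of 857 ± 170.3 RPM in fibers against 5.57 ± 0.467 RPM (SD, n = 4 each), and the inducible HSP90 gene Hsp90aa1 494 ± 96.1 RPM against 29.6 ± 2.62 RPM. The constitutive members moved less. Hspa8 was at a mean of 1594 ± 158 RPM against 779 ± 25.7 RPM, with a log2 fold change of 1.01, and Hsp90ab1 had a log2 fold change of 0.40. Hspa5, the HSP70 of the endoplasmic reticulum, had a log2 fold change of 1.18, and Hspd1 of the mitochondrion 0.48. The 5 members that were not called were Ahsa1, Hspa4, Fkbp4, Hspb6 and Hspb7, between -0.21 and 0.16. Of the 21 members called higher, 17 had a promoter window and 10 of these held the heat shock element shown in capitals for Hspa1b, against 7.86% of all windows. Among the 5 members that were not called, all with a window, 2 held it. The metal response element was in 6 of the 17 genes, against 15.4% of all windows. Among members called higher with a window, it was also in 4 of 9 of the AP-1 list. In the Egr, Nr4a, Klf and Ier list it was in 6 of 11. A gene counted if any of its windows held the motif, whereas the percentages are of single windows. These measures are not alike, and no difference between them was tested.

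Of 5 metallothionein and zinc genes 4 were higher and none lower, with a median of 0.85. Mt1 and Mt2, small cysteine-rich proteins that bind zinc and copper, led the list. Mt2 (ENSMUSG00000031762, chr8:94172664-94173568) was at 195, 244, 236 and 121 RPM in fibers against 3.55, 1.11, 2.36 and 2.60 RPM, log2 fold change 6.33 ± 0.34 (SE), adjusted p = 9.07e-07. Mt1 was at 259, 309, 268 and 184 RPM against 6.22, 4.37, 6.34 and 7.34 RPM, log2 fold change 5.36 ± 0.21 (SE), adjusted p = 1.44e-07. Fiber replicate 4 was the lowest fiber library for both genes and remained far above whole muscle.

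Cytokine and chemokine ligands had 17 of 20 tested members higher and 2 lower, with a median of 4.27. A further 7 listed ligands were too low to test. Il6 (ENSMUSG00000025746, chr5:30013114-30019981), a myokine and inflammatory cytokine, was at 38.8, 28.1, 58.7 and 20.7 RPM in fibers against 0.0180, 0, 0.0321 and 0.0663 RPM in whole muscle, where its 4 libraries held 7 counts in all, log2 fold change 10.08 ± 0.54 (SE), adjusted p = 8.56e-07. Cxcl1, a neutrophil attractant, was at 43.4, 44.1, 67.3 and 34.4 RPM against 0.234, 0.189, 0.144 and 0.182 RPM, log2 fold change 7.94 ± 0.26 (SE), adjusted p = 4.33e-08. Csf3, the granulocyte colony-stimulating factor, was at 8.499, 7.502, 8.63 and 3.80 RPM in fibers and had no count in any whole muscle library, which made it at least 532-fold higher against a floor of 3 counts over the group. Ccl2, which recruits monocytes, was at 15.0, 14.5, 23.8 and 10.4 RPM against 0.703, 0.126, 0.112 and 0.514 RPM, log2 fold change 5.40 ± 0.44 (SE), adjusted p = 1e-05.

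Fiber replicate 4 was the lowest fiber library for Il6, Cxcl1, Csf3 and Ccl2, and replicate 3 the highest. The 2 members that were lower were the chemokine Ccl9, at a log2 fold change of -0.83, and Cxcl12, a chemokine of stromal cells that retains leukocytes. Cxcl12 was the most abundant ligand by RPM in whole muscle, at 66.6, 47.1, 99.9 and 66.9 RPM in fibers against 101, 99.7, 105 and 97.6 RPM. No listed ligand was lower without fiber replicate 4 or whole muscle replicate 3, and 1 was lower when any other library than fiber replicate 3 was left out. For Cxcl12 the adjusted p of 0.0239 rose above 0.05 without fiber replicate 4 (0.0544) or whole muscle replicate 2 (0.051) or 3 (0.0621).

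Among all genes, the largest upward changes also took in genes of vessel and matrix. Sele (E-selectin, chr1:164048234-164057677), an adhesion molecule of activated endothelium, was at 23.3, 20.9, 32.7 and 16.4 RPM against 0.0180, 0, 0.0321 and 0.0663 RPM, log2 fold change 9.43 ± 0.38 (SE), adjusted p = 1.64e-07. Has1, a hyaluronan synthase, was at 21.5, 20.8, 28.5 and 12.6 RPM against 0.0541, 0.126, 0.0803 and 0.0497 RPM, and Cxcl10, an interferon-induced chemokine, at 33.0, 12.4, 23.0 and 8.43 RPM against 0.0901, 0.0210, 0.0321 and 0.0828 RPM. Each was below 1 RPM in every whole muscle library. Of the 17 ligands called higher, 12 had a promoter window and 4 of these held the NF-kappaB site that is in capitals for Il6 and Cxcl1 (Csf1, Cxcl1, Cxcl2 and Il6), against 1.63% of all windows. The AP-1 site was also in 4 of the 12 (Cxcl10, Cxcl9, Il6 and Lif), against 7.81% of all windows. These counts are again of genes, and the 1 ligand that was not called had no window. The AP-1 site was in 0 of 9 genes called higher in the AP-1 list. Of 21 early response inhibitors and effectors called higher with a window, 4 held the NF-kappaB site and 5 the cAMP response element. Only some of the pairs of motif and list are given, and none was tested. Which cell type made this RNA was not tested, and the markers of endothelium, stroma and immune cells in the same libraries are given below.

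Other stress programs changed in part. ATF4 and unfolded protein response genes had 11 of 18 members higher and 1 lower, with a median of 0.61, led by Gdf15, a stress cytokine, at 2.39, 1.87, 3.09 and 2.14 RPM against 0.0901, 0.0631, 0.0161 and 0.0331 RPM. Ddit3 (CHOP) was at 51.6, 88.8, 51.9 and 74.9 RPM against 8.85, 9.86, 7.09 and 9.48 RPM, log2 fold change 2.89 ± 0.18 (SE), adjusted p = 2.17e-06, and Atf5 was the member that was lower, log2 fold change -0.47 ± 0.09 (SE), adjusted p = 0.0022. Atf4, the factor that names the program, was at 268 ± 32.2 RPM against 146 ± 8.998 RPM (SD, n = 4 each). Antioxidant genes were 7 of 15 higher and 1 lower, with a median of 0.15. Hmox1, which degrades heme, was at 139, 124, 88.0 and 81.6 RPM against 6.04, 4.08, 4.25 and 5.24 RPM, and Osgin1 at 346, 393, 173 and 154 RPM against 18.9, 13.7, 19.0 and 13.1 RPM, again with fiber replicates 1 and 2 above 3 and 4. Sod2, the mitochondrial superoxide dismutase, was lower, log2 fold change -0.38 ± 0.07 (SE), adjusted p = 0.0018.

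FoxO and glucocorticoid targets were 9 of 15 higher and 2 lower, with a median of 0.66. Irs2, an adaptor of insulin signaling, was at 400.0, 649, 335 and 378 RPM against 28.4, 20.1, 29.3 and 21.9 RPM, log2 fold change 4.12 ± 0.23 (SE), adjusted p = 1.07e-06, and Cebpd at 217, 235, 257 and 164 RPM against 16.3, 6.56, 23.9 and 24.9 RPM. Pdk4, the kinase that turns off pyruvate dehydrogenase, overlapped between the groups, log2 fold change 0.22 ± 0.37 (SE), adjusted p = 0.66, with replicate 1 the highest library of each group. Foxo4 was lower, log2 fold change -1.13 ± 0.15 (SE), adjusted p = 0.000189. In the circadian clock list 9 of 18 members were higher and 3 lower, with a median of 0.40. Ciart, a repressor of the clock, was at 27.0, 62.8, 26.8 and 46.2 RPM against 0.847, 0.841, 0.770 and 2.02 RPM, and Per1, which is also an early gene, at 83.1, 150.4, 106 and 132 RPM against 10.1, 10.5, 32.1 and 29.0 RPM. Bhlhe40, a repressor in the same loop, was at 490.2, 735, 437 and 444 RPM against 113, 93.4, 112 and 127 RPM. For Irs2, Cebpd, Ciart, Per1 and Bhlhe40 the groups stood apart, which the rule required of genes named for a large change. The output factors Hlf (-0.98) and Tef (-0.42) were lower on the log2 scale. The hour of tissue collection was not given in the sources used here.

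**Figure D2:**
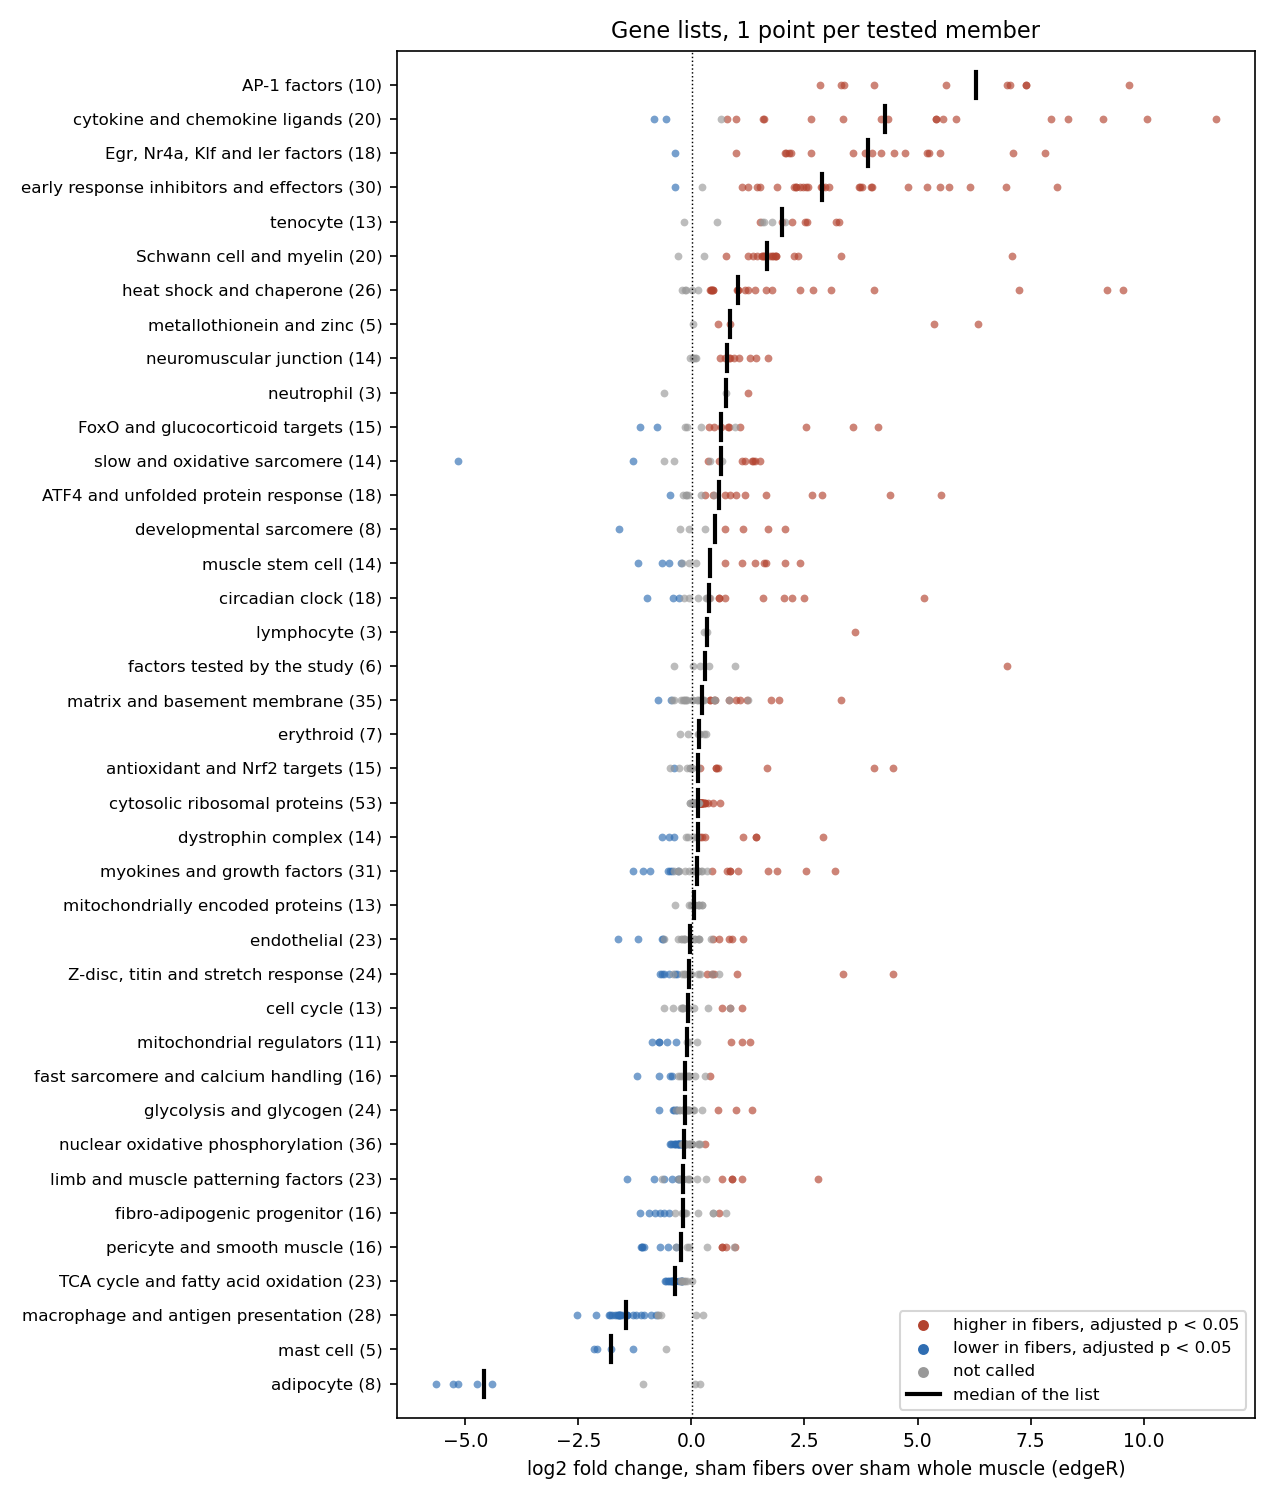
Log2 fold change, sham fibers over sham whole muscle, of every tested member of 39 gene lists (number tested in parentheses), with a black bar at the median of each list and a dotted line at the median of all tested genes. The AP-1 list lies highest, at a median of 6.30, and the adipocyte list lowest, at -4.58.

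The fiber preparation held markers of cells outside the fiber, and they moved in different directions by cell type. Schwann cell and myelin genes were higher for 18 of 20 members and lower for none, with a median of 1.67, and their summed level was 158 to 296 RPM in fibers against 53.3 to 64.98 RPM in whole muscle. Mbp had a mean of 27.1 ± 8.71 RPM against 8.90 ± 0.304 RPM, and Sox10, the lineage factor of Schwann cells, 3.60 ± 1.02 RPM against 1.06 ± 0.249 RPM. Every member called in this list was higher in fibers, whereas Ngfr (-0.29) and Gfra3 (0.28) on the log2 scale were not called. Egr2, a member of this list and of the early genes, had the largest change and was counted in both.

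Tendon cell genes were higher for 7 of 13 members and lower for none, with a median of 2.00. Their summed level was 198, 393, 2096 and 527 RPM in fiber replicates 1 to 4 against 98.1 to 283 RPM in whole muscle, so that replicate 3 lay far above the others and replicate 1 within the range of whole muscle. Tnmd (tenomodulin, chrX:133850980-133865577), a membrane protein of tenocytes, was at 1.38, 5.59, 33.6 and 9.54 RPM against 2.43, 0.652, 1.59 and 3.43 RPM, log2 fold change 2.55 ± 0.80 (SE), adjusted p = 0.0239. Its call was lost without fiber replicate 3 (log2 fold change 1.41, adjusted p = 0.072) and without whole muscle replicate 2 (0.0599) or 3 (0.0619). Thbs4, a matrix glycoprotein of tendon, was at 83.3, 179, 861 and 199 RPM against 76.2, 39.5, 61.4 and 94.1 RPM, and Tnc (tenascin C), a glycoprotein of tendon and injured matrix, at 8.11, 13.6, 49.4 and 12.9 RPM against 2.70, 0.862, 1.81 and 3.30 RPM. Without fiber replicate 3 the list had 6 members higher and a median of 0.99, and without fiber replicate 1 it had 11. Scx, the tendon lineage factor, was not called at 6.86 ± 1.93 RPM against 7.60 ± 2.85 RPM (SD, n = 4 each).

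The matrix and basement membrane list had 11 of 35 members higher and 2 lower, with a median of 0.22. Col12a1, a collagen of tendon and fascia, was at 6.79, 17.1, 83.9 and 16.7 RPM against 3.25, 1.70, 2.71 and 4.26 RPM, log2 fold change 3.31 ± 0.69 (SE), adjusted p = 0.00306, and Postn (periostin) at 13.9, 12.3, 25.3 and 13.6 RPM against 5.61, 1.96, 3.27 and 5.83 RPM, log2 fold change 1.93 ± 0.33 (SE), adjusted p = 0.000915. Col3a1, a fibrillar collagen of the muscle sheath, was lower, at a mean of 139 ± 50.7 RPM against 230.4 ± 72.1 RPM. Fiber replicate 3 again held the highest summed level, 6376 RPM against 2639 to 3043 RPM in the other fibers and 2511 to 3557 RPM in whole muscle. Without it 11 members were higher and 9 lower, and the median of the list changed sign to -0.15, while without any 1 of fiber replicates 2 and 4 and whole muscle replicates 1 and 4 no member was lower. Hspg2 (perlecan), the basement membrane proteoglycan with the most RPM in the list, was at 366, 339, 505 and 337 RPM against 332, 286, 254 and 269 RPM, and its call was lost without fiber replicate 1 or whole muscle replicate 2, 3 or 4.

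Endothelial genes were spread over both directions, with 5 of 23 members higher, 4 lower and a median of -0.04 that changed sign without fiber replicate 4 (0.09). Over all tested genes 25.5% were higher and 23.2% lower, so that the list was near these shares. Their summed level was 1325 to 1665 RPM in fibers and 1409.7 to 1586 RPM in whole muscle. Pecam1 (CD31), the junction protein used to stain vessels, was at 80.1, 68.9, 92.1 and 74.6 RPM against 71.1, 71.6, 72.2 and 82.6 RPM, log2 fold change 0.06 ± 0.10 (SE), adjusted p = 0.624. Sox17, an arterial factor, was higher at 22.2, 31.9, 29.1 and 20.6 RPM against 10.9, 10.99, 11.4 and 12.5 RPM, log2 fold change 1.15 ± 0.12 (SE), adjusted p = 5.01e-05. Egfl7, secreted by endothelium, was lower at 15.4, 12.7, 16.7 and 16.1 RPM against 42.8, 48.2, 45.6 and 49.5 RPM, log2 fold change -1.63 ± 0.10 (SE), adjusted p = 1.54e-06, and so was Gpihbp1, which anchors lipoprotein lipase in capillaries, log2 fold change -1.18 ± 0.28 (SE), adjusted p = 0.00666. Members called lower numbered 7 without fiber replicate 1 and 2 without whole muscle replicate 4. The summed level thus overlapped between a digested fiber preparation and undigested muscle, while single members differed.

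Pericyte and smooth muscle genes were 4 of 16 higher and 7 lower, with a median of -0.22 and summed levels of 692 to 909 RPM in fibers against 716 to 745 RPM. Myh11, the smooth muscle myosin, was at 60.4, 47.0, 66.5 and 52.7 RPM against 29.7, 26.4, 28.3 and 29.3 RPM, log2 fold change 0.97 ± 0.11 (SE), adjusted p = 6.7e-05. In the joint fit of all 16 libraries 1 member was higher, and Myh11 was not called (adjusted p = 0.0882). Kcnj8, a potassium channel subunit of pericytes, was lower at 8.60, 12.1, 13.7 and 7.75 RPM against 23.5, 23.6, 19.5 and 21.2 RPM, log2 fold change -1.09 ± 0.15 (SE), adjusted p = 0.000248. Its partner subunit gene Abcc9, which skeletal fibers also express, was higher at 261, 333, 289 and 306 RPM against 178, 201, 194 and 152 RPM. Cox4i2, a lung and vessel isoform of a cytochrome oxidase subunit, was also lower at 0.908, 0.784, 1.11 and 0.670 RPM against 1.97, 1.83, 1.52 and 2.05 RPM.

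Fibro-adipogenic progenitor genes, which mark the mesenchymal cells between fibers, were 1 of 16 higher and 6 lower, with a median of -0.20. Pdgfra, the receptor that defines these cells, was at 9.70, 14.8, 25.9 and 9.83 RPM against 15.9, 14.5, 10.7 and 11.7 RPM, log2 fold change 0.15 ± 0.27 (SE), adjusted p = 0.669. Pi16, which marks a progenitor of the adventitia, was lower at 8.77, 8.65, 9.86 and 4.05 RPM against 23.4, 18.4, 14.5 and 12.0 RPM, log2 fold change -1.14 ± 0.27 (SE), adjusted p = 0.0062, and Clec3b at 12.3, 13.1, 19.3 and 8.96 RPM against 29.1, 24.0, 22.5 and 24.5 RPM. Fiber replicate 3 had the highest summed level of all 8 libraries, 2067 RPM against 796 to 1374 RPM. Without it none was higher and 10 were lower, with a median of -0.52.

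Macrophage and antigen presentation genes were lower for 23 of 28 members and higher for none, with a median of -1.44 and summed levels of 54.1 to 114 RPM in fibers against 139 to 266 RPM in whole muscle. Csf1r, the receptor that macrophages need to survive, was at 3.61, 4.61, 8.42 and 3.15 RPM against 14.2, 10.9, 8.57 and 8.48 RPM, log2 fold change -1.12 ± 0.28 (SE), adjusted p = 0.00722. Cd74, the invariant chain of MHC class II, was at 8.79, 9.19, 16.9 and 8.49 RPM against 40.8, 27.0, 27.9 and 33.0 RPM, and Ccr2, the receptor of recruited monocytes, at 0.578, 0.121, 0.226 and 0.217 RPM against 2.65, 1.41, 1.17 and 1.26 RPM, log2 fold change -2.52 ± 0.44 (SE), adjusted p = 0.00113. Fiber replicate 3 was the highest fiber library in the sum and stayed below every whole muscle library. Clec10a, a lectin of resident macrophages, was at 0.433, 0.483, 0.573 and 0.380 RPM against 2.99, 1.98, 1.32 and 1.67 RPM. The 5 members that were not called were Adgre1 (-0.73), Cx3cr1 (-0.74), Ptprc (-0.67), Cd68 (0.27) and Mrc1 (0.11), with log2 fold changes in parentheses. Mast cell genes were lower for 4 of 5 tested members, with a median of -1.79, including the protease Mcpt4 at 0.144, 0.302, 0.191 and 0.380 RPM against 1.39, 1.20, 0.738 and 0.994 RPM.

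Adipocyte genes gave the lowest list median, -4.58, with 5 of 8 tested members lower and none higher. Their summed level overlapped all the same, at 108 to 156 RPM in fibers against 123 to 172 RPM in whole muscle. Adipoq (adiponectin, chr16:23146536-23158028) was at 0.144, 0, 0.0694 and 0.0724 RPM against 1.89, 1.303, 0.466 and 6.54 RPM, log2 fold change -5.15 ± 0.98 (SE), adjusted p = 0.00172. Plin1, which coats fat droplets, was at 0.0619, 0, 0.0868 and 0.109 RPM against 1.66, 1.77, 0.642 and 6.23 RPM, and Cfd (adipsin) at 1.07, 0.0402, 0.521 and 1.38 RPM against 13.99, 6.81, 4.05 and 38.7 RPM. Lep (leptin), which the count filter removed, had no count in fibers and 143 counts over the 4 whole muscle libraries, so that its level was at least 44.6-fold lower in fibers against the floor of 3 counts over the group. Whole muscle libraries varied widely here, replicate 4 being the highest and replicate 3 the lowest for Adipoq, Plin1 and Cfd. Without whole muscle replicate 4 the median of the adipocyte list was -3.60, and 5 members were still lower. Plin4, which fibers also express, was not called, log2 fold change 0.19 ± 0.10 (SE), adjusted p = 0.155.

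Hemoglobin genes were highest in replicate 1 of each group. None of 7 erythroid genes was called in either direction by edgeR or DESeq2 (1 at an unadjusted p below 0.05, median 0.16), and Hbb-bs (beta globin) was at 416, 107, 84.3 and 101 RPM against 283, 97.1, 88.9 and 117 RPM, log2 fold change 0.32 ± 0.58 (SE), adjusted p = 0.68, with replicate 1 the highest library of both groups. Without fiber replicate 1 the median of the erythroid list was -0.69 with 1 member lower, and without whole muscle replicate 1 it was 0.61. Ighm, the immunoglobulin heavy chain of B cells, was lower in fibers at 36.7, 10.4, 9.39 and 12.5 RPM against 287, 74.8, 77.3 and 55.1 RPM, log2 fold change -2.81 ± 0.64 (SE), adjusted p = 0.00498. Its groups did not overlap, which the rule that named it required. Cd79b, which is listed as a B cell marker, was by contrast higher in fibers at 3.82, 4.77, 2.50 and 3.64 RPM against 0.487, 0.336, 0.257 and 0.116 RPM, log2 fold change 3.61 ± 0.34 (SE), adjusted p = 2.31e-05. Only 3 of 11 lymphocyte and 3 of 11 neutrophil genes were abundant enough to test, and Cd79b and Lcn2 (1.26 on the log2 scale), a lipocalin of neutrophils and stressed epithelium, were the members called. Lcn2 overlapped between the groups, and its call was lost without fiber replicate 3 (log2 fold change 0.92, adjusted p = 0.0876) or whole muscle replicate 2 (0.0806), 3 (0.0801) or 4 (0.09). The part that cell content, muscle and digestion each had in these marker differences was not tested.

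**Figure D3:**
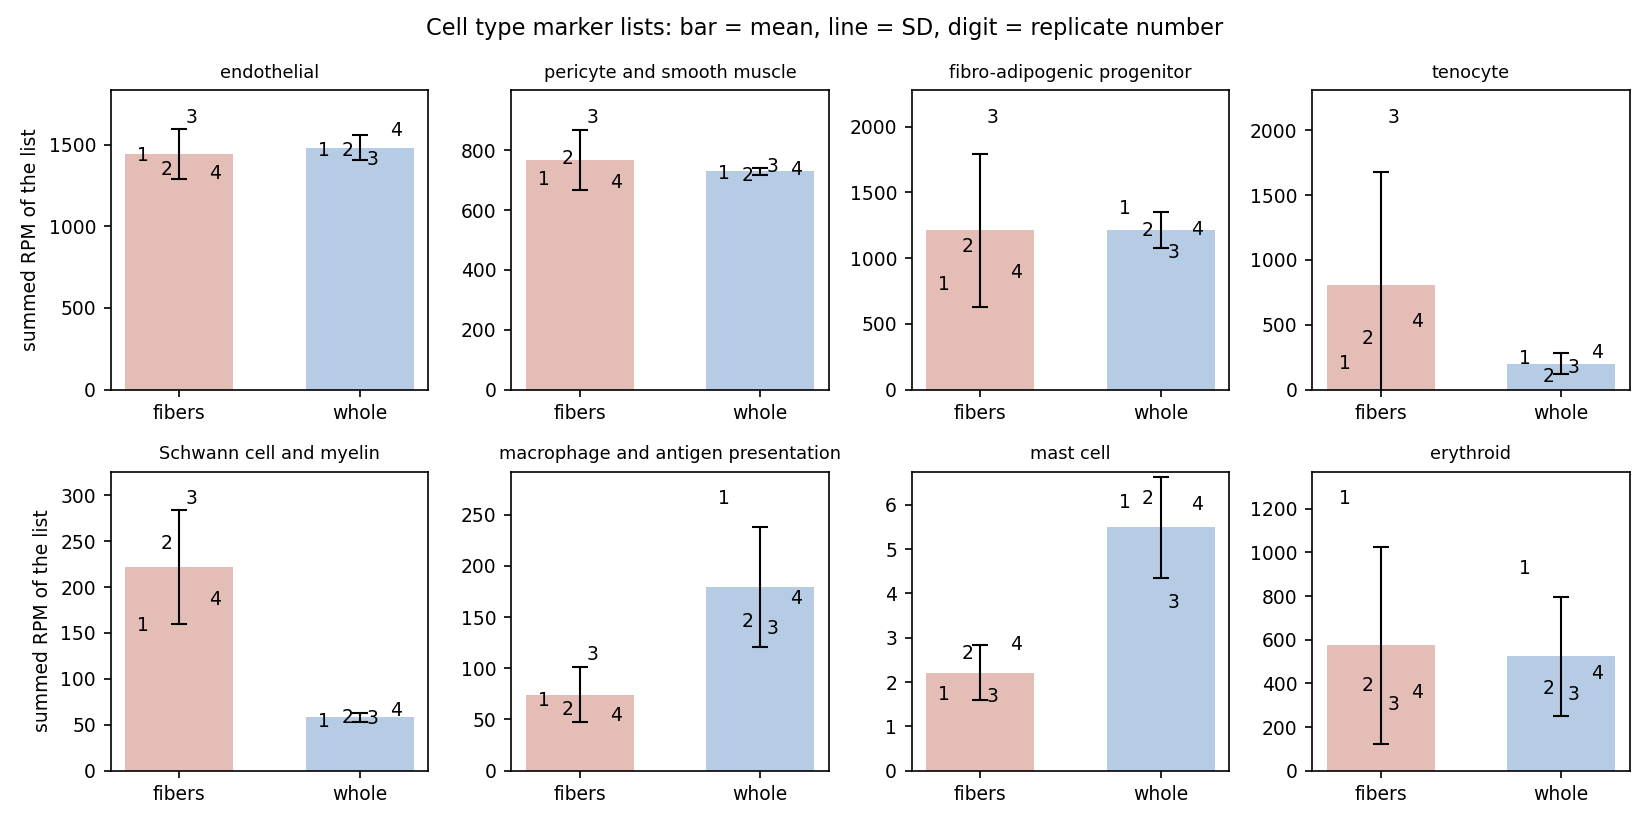
Summed RPM of 8 cell type marker lists by group, with bars for the mean, lines for the SD and digits for the replicate number of each library (4 per group). Schwann cell and myelin sums run from 158 to 296 RPM in fibers and from 53.3 to 64.98 RPM in whole muscle, while the endothelial sums overlap.

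Muscle stem cells lie beneath the basal lamina of the fiber and are carried along by fiber isolation. Their list had 7 of 14 members higher and 4 lower, with a median of 0.42. Pax7, the transcription factor that defines them, was at 1.55, 1.15, 2.60 and 2.15 RPM against 2.87, 3.03, 3.08 and 2.58 RPM, log2 fold change -0.66 ± 0.21 (SE), adjusted p = 0.0259. Fiber replicate 3, at 2.60 RPM, overlapped whole muscle replicate 4, and the call was lost without fiber replicate 1 (adjusted p = 0.0676) or whole muscle replicate 2 (0.0629) or 3 (0.07), each of which left 2 members of the list lower. Heyl, a Notch target of quiescent stem cells, was also lower at 3.30, 5.07, 6.33 and 4.47 RPM against 10.7, 11.3, 9.44 and 11.2 RPM, log2 fold change -1.18 ± 0.14 (SE), adjusted p = 0.000107. Myf5, a myogenic factor that is translated on activation, was higher, at a mean of 2.91 ± 0.430 RPM against 0.909 ± 0.214 RPM, and Myod1, of the same family, was not called at 52.3 ± 14.7 RPM against 48.3 ± 7.31 RPM. The largest rises were in surface proteins that other cells share, Vcam1 at 12.0, 12.1, 20.2 and 10.1 RPM against 3.39, 2.06, 2.30 and 2.34 RPM and Sdc4 (syndecan 4) at 69.1, 90.6, 84.0 and 63.2 RPM against 19.5, 17.7, 19.5 and 15.5 RPM. The transcription factors of the list thus lay on both sides of 0.

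Among the fast sarcomere and calcium handling genes, 1 of 16 was higher and 4 were lower, with a median of -0.13. Myh4, the fast 2B myosin heavy chain, was at 52225, 46838, 45721 and 52204 RPM in fibers against 62966, 60199.7, 66475 and 49854 RPM, log2 fold change -0.30 ± 0.14 (SE), adjusted p = 0.0934. Without fiber replicate 1 or whole muscle replicate 4 its adjusted p was 0.0469 or 0.0439. Myh1 (chr11:67200052-67224575), the 2X myosin, was lower at 3496, 6769.7, 6090.4 and 5191 RPM against 12187, 13636, 9729.5 and 13145 RPM, log2 fold change -1.21 ± 0.17 (SE), adjusted p = 0.000308. Tpm1, the fast tropomyosin, was lower at 7929, 6607, 8544 and 9474 RPM against 12584, 12552, 14085 and 13456 RPM. Pvalb (parvalbumin), a calcium buffer of fast fibers, was higher at 8429, 7858, 8040.2 and 9647 RPM against 6644, 5797, 6628 and 5971 RPM, log2 fold change 0.42 ± 0.11 (SE), adjusted p = 0.00845.

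Per length, on the deposited RPKM scale, Myh4 made up 89.3% ± 3.48 (SD, n = 4) of the summed level of the 4 adult myosins in fibers and 82.3% ± 3.56 in whole muscle. The share of Myh1 was 9.30% ± 2.63 against 16.1% ± 3.22, and its groups did not overlap (exact permutation test, two-sided, p = 0.0286, the smallest that 4 against 4 libraries can give, and 0.114 adjusted over the 4 shares). After adjustment, neither the share of Myh1 nor that of Myh4 (exact permutation p = 0.0571, adjusted 0.114) was called. The 4 shares of a library add up to a whole and are not independent. Myh2, the 2A myosin, took 1.45% ± 0.91 against 1.62% ± 0.42, and Myh7, the slow myosin, 0.00554% against 0.00253%. Fast myosins thus made up nearly all of the sum in both preparations.

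Slow and oxidative sarcomere genes were 8 of 14 higher and 2 lower, with a median of 0.64. Tnni1, the slow troponin I, was at 2.12, 4.49, 4.01 and 2.68 RPM against 1.32, 1.39, 0.787 and 1.09 RPM, log2 fold change 1.51 ± 0.24 (SE), adjusted p = 0.000612, and Myh7b at 7.47, 13.1, 19.7 and 7.26 RPM against 4.04, 4.90, 3.74 and 5.17 RPM. Myh7 overlapped, at 0.928, 7.92, 5.74 and 2.66 RPM against 2.78, 3.55, 1.77 and 2.37 RPM, log2 fold change 0.68 ± 0.49 (SE), adjusted p = 0.279. Against this direction stood Myl3 (ENSMUSG00000059741, chr9:110741861-110769798), the slow and ventricular essential light chain, at 0.227, 1.49, 2.12 and 0.416 RPM in fibers against 33.6, 48.7, 25.9 and 41.6 RPM in whole muscle, log2 fold change -5.16 ± 0.47 (SE), adjusted p = 1.78e-05. Casq2, the slow and cardiac calsequestrin, was also lower at 7.22, 16.1, 9.41 and 6.23 RPM against 33.5, 22.2, 17.7 and 19.6 RPM. Fiber replicates 2 and 3 were the highest fiber libraries for Myl3, Tnni1, Myh7 and Myh2.

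Developmental sarcomere genes were 4 of 8 higher and 1 lower, with a median of 0.52. Myh3, the embryonic myosin, was lower at 13.6, 31.7, 25.3 and 20.7 RPM against 67.2, 69.4, 49.9 and 83.9 RPM, log2 fold change -1.60 ± 0.22 (SE), adjusted p = 0.000216, while Mybph, a myosin binding protein, was higher at 47.2, 24.5, 27.0 and 52.7 RPM against 8.22, 11.04, 5.96 and 10.5 RPM, log2 fold change 2.08 ± 0.30 (SE), adjusted p = 0.000328. Myh8, the neonatal myosin, was not called at 462, 460.1, 422 and 469.9 RPM against 549.6, 557, 568 and 444 RPM.

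In the list of Z-disc, titin and stretch response genes 6 of 24 were higher and 6 lower, with a median of -0.04. These counts were near the shares over all tested genes, 25.5% higher and 23.2% lower. Xirp1, an actin binding protein of damaged and remodeling fibers, was at 2114, 2153, 1384 and 1190.0 RPM against 192, 162, 167 and 146 RPM, log2 fold change 3.35 ± 0.22 (SE), adjusted p = 2.95e-06. Ankrd1 (CARP), a titin-bound factor that responds to stretch, was at 216, 274, 101 and 84.7 RPM against 4.96, 6.45, 6.07 and 13.2 RPM, log2 fold change 4.45 ± 0.48 (SE), adjusted p = 5.34e-05. Both were higher in fiber replicates 1 and 2 than in 3 and 4. The M-band proteins Myom1 (-0.68) and Myom2 (-0.65) were lower on the log2 scale, and Ttn itself was not called, log2 fold change 0.20 ± 0.12 (SE), adjusted p = 0.208.

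The dystrophin complex had 7 of 14 members higher and 3 lower, with a median of 0.15. Sgcd (delta sarcoglycan, ENSMUSG00000020354, chr11:46896253-47988969) was at 24.4, 30.9, 24.2 and 25.1 RPM against 3.57, 3.83, 3.07 and 3.35 RPM, log2 fold change 2.90 ± 0.10 (SE), adjusted p = 9.02e-08. The sarcoglycan genes Sgca (0.06) and Sgcb (-0.08) were not called on the log2 scale. Utrn (utrophin), the dystrophin relative of the synapse, was at 62.5, 63.1, 76.4 and 49.1 RPM against 23.4, 24.9, 21.2 and 21.6 RPM, log2 fold change 1.44 ± 0.12 (SE), adjusted p = 9.15e-06, and Dmd (dystrophin) had a mean of 157 ± 22.5 RPM against 57.7 ± 2.60 RPM. Sntb1, which encodes a syntrophin, was lower, at a log2 fold change of -0.64.

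Genes of the neuromuscular junction were 9 of 14 higher and none lower, with a median of 0.79. Chrnd, the delta subunit of the acetylcholine receptor, was at 5.69, 6.11, 5.85 and 6.08 RPM against 1.68, 1.87, 2.17 and 1.44 RPM, log2 fold change 1.70 ± 0.13 (SE), adjusted p = 6.92e-06. Musk, the receptor kinase that clusters these receptors, was at 8.73, 11.002, 10.7 and 9.81 RPM against 3.39, 4.10, 4.48 and 2.67 RPM, log2 fold change 1.43 ± 0.15 (SE), adjusted p = 4.3e-05, and Chrne, the adult epsilon subunit, at 16.3, 20.5, 19.4 and 26.4 RPM against 9.09, 12.6, 10.4 and 10.4 RPM, log2 fold change 0.93 ± 0.14 (SE), adjusted p = 0.000418. Rapsn (-0.04), Dok7 (0.04), Agrn (0.10) and Chrnb1 (0.03), which act at the same synapse, were not called on the log2 scale. Chrng, the fetal subunit, was too low to test.

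Position along the limb and between muscles is kept in the adult by homeobox and related factors, of which 5 of 23 tested were higher and 7 lower, with a median of -0.18. The shares over all tested genes were similar, 25.5% higher and 23.2% lower. Without fiber replicate 2 or whole muscle replicate 4, 4 were lower. Zic1 (ENSMUSG00000032368, chr9:91358058-91365810), a zinc finger factor, was at 7.53, 10.1, 7.08 and 6.53 RPM against 1.19, 1.28, 1.124 and 0.812 RPM, log2 fold change 2.80 ± 0.18 (SE), adjusted p = 2.45e-06. Lbx1, which guides the migration of limb muscle precursors, was lower at 43.3, 61.6, 47.9 and 52.2 RPM against 87.9, 90.4, 90.2 and 89.7 RPM, log2 fold change -0.83 ± 0.09 (SE), adjusted p = 4.27e-05. Hoxc10, a hindlimb Hox gene, was at 43.1, 39.5, 46.6 and 49.3 RPM against 64.8, 67.4, 68.6 and 66.0 RPM, log2 fold change -0.60 ± 0.08 (SE), adjusted p = 0.000139. Tbx15, the most abundant of the list by RPM, was not called, log2 fold change -0.18 ± 0.09 (SE), adjusted p = 0.131. For Lbx1 and Hoxc10 the whole muscle libraries lay closely together. The fiber libraries were all below them, which the rule that named both genes required.

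Of genes with at least 10 RPM in the higher group, the largest fall was that of Sim2 (ENSMUSG00000062713, chr16:94084931-94127032), a bHLH-PAS factor. Sim2 was at 0.743, 0.4224, 0.659 and 0.742 RPM in fibers against 30.2, 29.4, 30.3 and 29.6 RPM in whole muscle, log2 fold change -5.56 ± 0.14 (SE), adjusted p = 2.21e-08, with each group tightly grouped. Car3, the carbonic anhydrase of slow fibers and adipocytes, was at 216, 137, 112 and 174 RPM against 2379.8, 1895, 1928 and 2188 RPM, log2 fold change -3.72 ± 0.23 (SE), adjusted p = 1.98e-06. Slc30a2, a zinc transporter, was at 2.19, 2.53, 3.75 and 3.13 RPM against 23.5, 20.1, 23.8 and 16.5 RPM. Also among the 10 largest falls were Myl3, Cfd, Ighm, Slc15a5 (-2.38), Npr3 (-2.18) and Bdh1 (-2.16), with log2 fold changes in parentheses where not given above. Bdh1, a ketone body enzyme, was uneven among fibers, at 0.784, 12.1, 7.45 and 4.14 RPM.

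**Figure D4:**
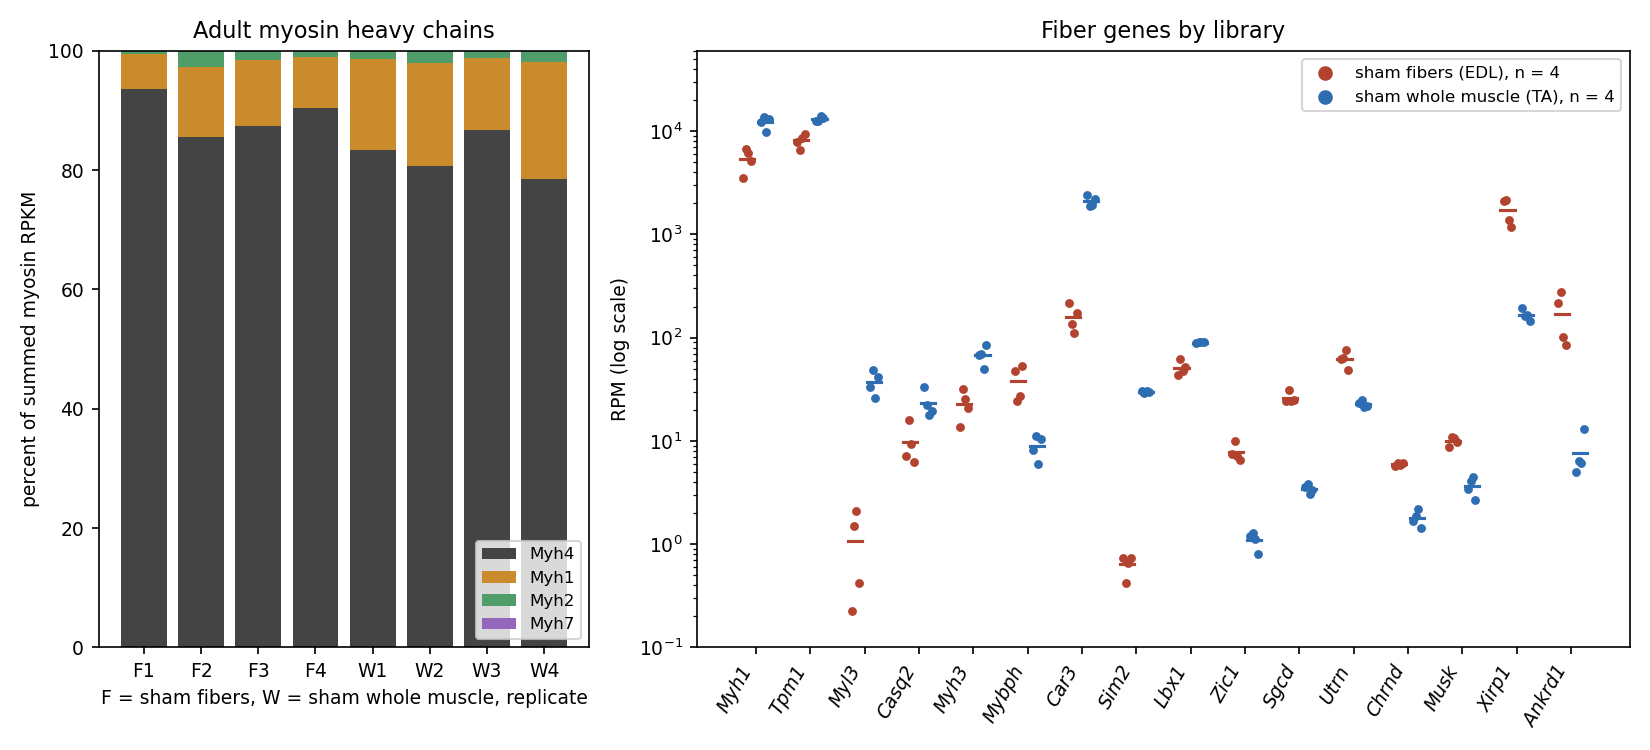
Left, share of each of 4 adult myosin heavy chains in their summed RPKM for the 8 libraries, as stacked bars. Right, RPM on a log scale of 16 fiber genes by library, with points for libraries and a bar for the mean (4 per group). Myh4 makes up 78.5% to 93.5% of the myosin sum, and Sim2 lies below 1 RPM in every fiber library and above 29 RPM in every whole muscle library.

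Most lists of energy genes had medians below 0. TCA cycle and fatty acid oxidation genes were lower for 16 of 23 members and higher for none, with a median of -0.36. Acadl, a dehydrogenase of long fatty acids, was at 161, 185, 168 and 166 RPM against 277, 246, 227 and 255 RPM, log2 fold change -0.59 ± 0.07 (SE), adjusted p = 0.000121. Nuclear genes of oxidative phosphorylation were 1 of 36 higher and 15 lower, with a median of -0.17, and 11 to 19 were lower when 1 library was left out. Uqcrc1 and Cyc1 of complex III had log2 fold changes of -0.46 and -0.45. None of 13 mitochondrially encoded genes was called by edgeR or DESeq2 (0 at an unadjusted p below 0.05), and their median of 0.06 changed sign without fiber replicate 1 (-0.11) or whole muscle replicate 1 (-0.02). The cytochrome oxidase gene mt-Co1 was at 49532, 38472, 38917 and 33404 RPM against 34589.9, 38219, 35784 and 41312 RPM, log2 fold change 0.08 ± 0.16 (SE), adjusted p = 0.695.

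Glycolysis and glycogen genes were 3 of 24 higher and 5 lower, with a median of -0.13, and 8 were lower without fiber replicate 4. Hk2, the insulin-responsive hexokinase, was at 1191, 1679.7, 624 and 722 RPM against 384, 415, 378 and 462 RPM, log2 fold change 1.35 ± 0.29 (SE), adjusted p = 0.00325. Slc16a3, the lactate exporter MCT4, was lower at 275, 272, 279 and 325 RPM against 449.8, 428, 463 and 517 RPM, log2 fold change -0.71 ± 0.09 (SE), adjusted p = 0.000145. Ppp1r3a, which targets a phosphatase to glycogen, was higher and Gys1 (glycogen synthase) lower, at log2 fold changes of 0.99 and -0.41. Mitochondrial regulators were 3 of 11 higher and 5 lower, with a median of -0.09. Among them, Ppargc1a (PGC-1alpha) was higher at 52.0, 72.4, 39.5 and 43.4 RPM against 28.8, 28.2, 25.1 and 29.3 RPM, log2 fold change 0.88 ± 0.17 (SE), adjusted p = 0.00212, and Perm1, which it induces, was lower at 161, 241, 164 and 188 RPM against 278, 324, 273 and 348 RPM, log2 fold change -0.73 ± 0.13 (SE), adjusted p = 0.00133. Ppara (1.28) and Ppargc1b (1.12) were higher and Esrrb (-0.88), an estrogen-related receptor, lower on the log2 scale.

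Cytosolic ribosomal protein genes were higher for 26 of 53 members and lower for none, with a small median of 0.15 that stayed between 0.13 and 0.18 in every alternative run. The count was less stable and fell to 12, 14 or 14 without whole muscle replicate 1, 2 or 3. Rpl3 was at 31.7, 37.6, 46.9 and 35.5 RPM against 24.6, 23.6, 20.9 and 26.8 RPM, log2 fold change 0.63 ± 0.10 (SE), adjusted p = 0.000557. Rpl4, the most abundant member by RPM, was not called, log2 fold change 0.04 ± 0.06 (SE), adjusted p = 0.599. Of 13 cell cycle genes tested 3 were higher and none lower (1 at an unadjusted p below 0.05), with a median of -0.08, including Pcna, the DNA polymerase clamp, at 30.5, 38.5, 35.4 and 29.7 RPM against 15.1, 13.4, 14.8 and 17.4 RPM.

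Myokines and growth factors were 9 of 31 higher and 7 lower, with a median of 0.12, near the 25.5% higher and 23.2% lower of all tested genes. Vegfa, which drives vessel growth, was at 623, 863, 458 and 576 RPM against 357, 291, 262 and 313 RPM, log2 fold change 1.03 ± 0.18 (SE), adjusted p = 0.00109. Dkk3, a secreted glycoprotein, was at 94.3, 57.2, 71.9 and 63.8 RPM against 24.4, 8.24, 9.39 and 7.22 RPM. Gdnf, a survival factor of motor neurons, was at 5.20, 5.53, 3.18 and 2.57 RPM against 0.703, 0.526, 0.225 and 0.364 RPM, log2 fold change 3.18 ± 0.37 (SE), adjusted p = 8.33e-05. Fndc5, the irisin precursor, was lower at 39.3, 40.9, 35.1 and 31.2 RPM against 113, 83.5, 78.0 and 81.2 RPM, log2 fold change -1.30 ± 0.13 (SE), adjusted p = 4.08e-05, and so was Vegfd, a growth factor of lymphatics, at a log2 fold change of -1.07. Of 6 tested factors that the study followed in other experiments, whose median was 0.29, Junb was higher here and Spp1 (log2 fold change 0.96 ± 0.65 (SE), adjusted p = 0.242), Tgfb1 (log2 fold change 0.38 ± 0.16 (SE), adjusted p = 0.0719) and Ostn (log2 fold change 0.20 ± 0.19 (SE), adjusted p = 0.418), which encode osteopontin, transforming growth factor beta 1 and musclin, were not called. Without whole muscle replicate 1, Spp1 was called higher (log2 fold change 2.099, adjusted p = 0.00754), and so was Tgfb1 without fiber replicate 4 (0.50, adjusted p = 0.0175) and in the joint fit (0.40, adjusted p = 0.0137). The study chose these factors on its own denervation data, partly from these preparations, so that the list is not independent evidence of its direction.

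The same preparations after DEN share no library with the sham comparison. There 9536 of 16856 genes (56.6%) differed between fibers and whole muscle. Among 15662 genes tested in both, 5405 were called in the same direction in both, which was 70.8% of the sham calls and 59.7% of the DEN calls. The difference between the preparations itself depended on surgery for 3307 of 17497 genes (18.9%, edgeR quasi-likelihood test of the interaction), which shifted toward fibers after DEN for 1241 and toward whole muscle for 2066. With libraries scaled to total counts only, these were 1488 and 1173, and with no filter on low counts 1312 and 1227, so that more genes shifted toward fibers in both.

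Of the 28 genes followed in both comparisons, 12 had a difference that depended on surgery, against 18.9% of all tested genes. The 28 were chosen with earlier results of these data known, so that this count is not a rate. Their interactions were not rerun in the alternatives. Interactions are given as the log2 fold change after DEN minus that in sham, ± SE, from a joint fit of all 16 libraries, so that they can differ slightly from the difference of the separate values. Among the stress genes, Junb, Mt2, Atf3 and Hspa1b differed less after DEN. Junb had a log2 fold change of 6.98 in sham and 2.72 after DEN, where fibers were at 897 ± 79.4 RPM and whole muscle at 132 ± 27.6 RPM (SD, n = 4 each), with interaction -4.31 ± 0.25, adjusted p = 5.2e-08. Mt2 went from 6.33 to 2.13, with interaction -4.25 ± 0.55, adjusted p = 8.71e-05, and Atf3 from 7.41 to 3.57, with interaction -3.88 ± 0.38, adjusted p = 6.41e-06. Hspa1b, at 1769 ± 384 RPM in DEN fibers and 13.04 ± 2.29 RPM in DEN whole muscle, still had a log2 fold change of 7.03, with interaction -2.56 ± 0.27, adjusted p = 1.41e-05. For Fos (6.73 after DEN, interaction -0.71 ± 0.62, adjusted p = 0.456), Il6 (8.71, interaction -1.44 ± 1.34, adjusted p = 0.492) and Ccl2 (4.52, interaction -0.94 ± 0.58, adjusted p = 0.283) the difference between surgeries was not called.

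Among markers of cell types and fibers, Pax7 was lower in sham fibers and higher in DEN fibers than in whole muscle, at -0.66 and 0.56 on the log2 scale, interaction 1.17 ± 0.27, adjusted p = 0.00679. Csf1r was at -1.12 in sham and -0.05 after DEN, interaction 1.02 ± 0.33, adjusted p = 0.0422, and Pecam1 at 0.06 and 0.70, interaction 0.58 ± 0.17, adjusted p = 0.0233. Myh7 was not called in sham and reached 3.13 after DEN, interaction 2.40 ± 0.62, adjusted p = 0.0135, and Ostn (musclin) went from 0.20 to 1.86, interaction 1.601 ± 0.29, adjusted p = 0.0014. Myh4 (interaction -0.67 ± 0.20, adjusted p = 0.0269), Pvalb (interaction -0.76 ± 0.13, adjusted p = 0.00085) and Tgfb1 (interaction -1.14 ± 0.17, adjusted p = 0.000314) shifted toward whole muscle after DEN. Tnmd, Chrne, Col22a1 and Tbx15 were not called between surgeries, with interactions of -0.48, -0.31, 0.17 and -0.01 on the log2 scale.

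**Figure D5:**
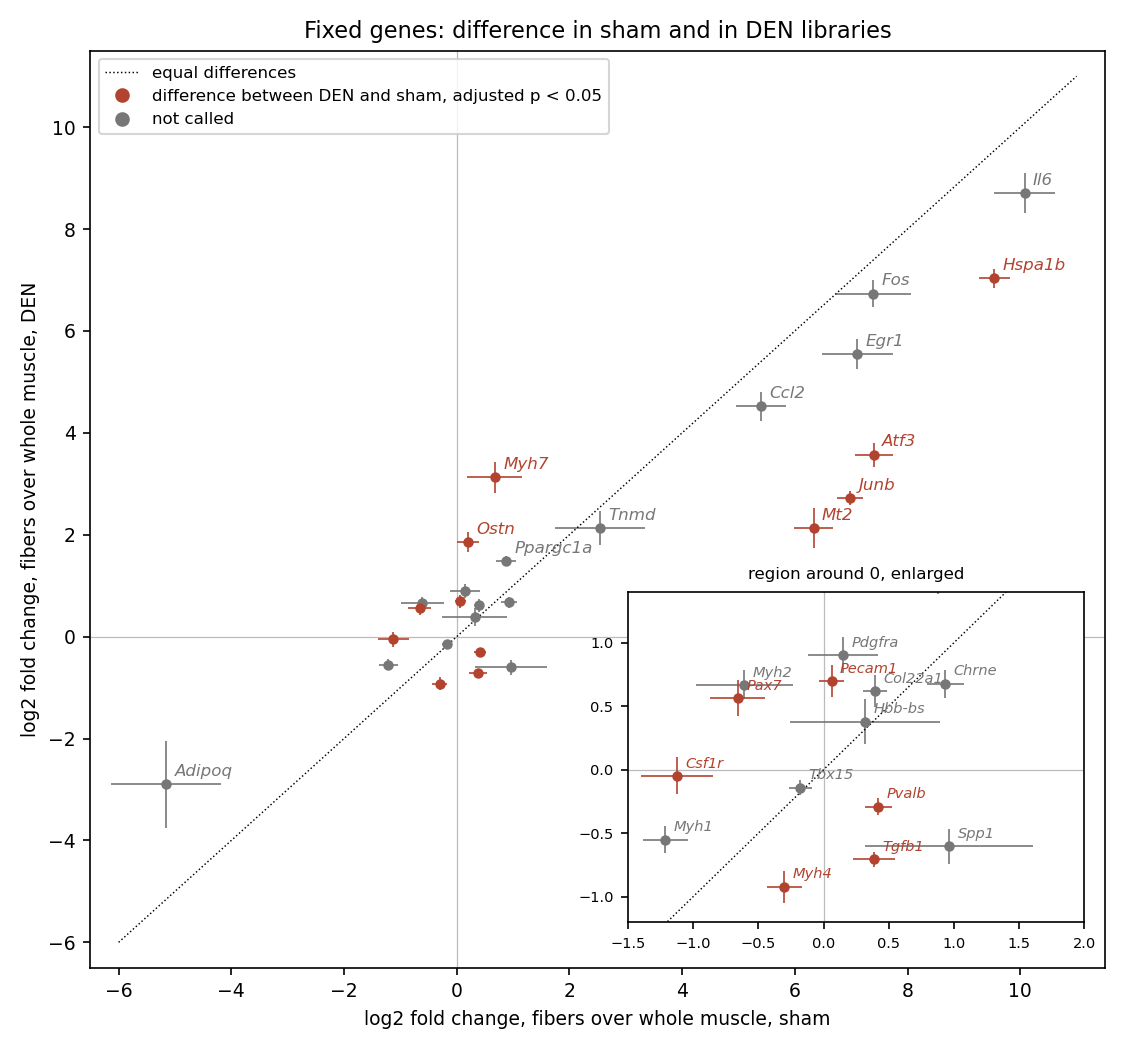
Log2 fold change of fibers over whole muscle in sham (horizontal) and after DEN (vertical) for the 27 of 28 followed genes tested in both, with SE lines and an enlarged inset around 0. Junb, Mt2, Atf3 and Hspa1b lie below the dotted line of equal differences, and Junb moves from 6.98 in sham to 2.72 after DEN.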

How the data were processed

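PolyA-selected, directional libraries were made from total RNA of 16 samples, of which the 8 sham libraries carry the results. Per the labels, the authors used bcl2fastq 2.20.0.422, cutadapt 2.1, TopHat2 2.1.0 and featureCounts 1.6.5 on GRCm38. The deposited raw counts per gene were the input of every test, the deposited RPM values (reads scaled to the reads assigned to genes) give the levels per library, and the deposited RPKM values, which the authors also scaled by gene length, were used for the myosin shares. Counting was stranded. The table holds 55487 genes, of which 28285 had a count in the sham libraries and 16005 passed filterByExpr (minimum count 10).

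Tests were edgeR 4.0.16 quasi-likelihood tests (R 4.3.3, limma 3.58.1) with TMM scaling, Benjamini-Hochberg adjustment over all tested genes and a threshold of 0.05. The study itself used DESeq2, run here as an alternative (1.42.0). SEs were taken from the fold change and its F statistic. The fits were tested on simulated counts with few genes changed and the changes balanced in direction. In the sham data 48.8% of genes were called and upward changes were larger, a setting that the simulation did not cover. The 28 followed genes, the 39 lists (12 of cell types, 27 of processes) and the tests were chosen with earlier results of these data known. Named genes were the 28 and up to 2 members per list and direction with the largest change (called, no overlap, at least 1 RPM). The most abundant member of each list and the 10 largest changes per direction (called, no overlap, at least 10 RPM) were added. Other members named in the text, Lep among them, were chosen after their values were seen. Some genes that the rule names are not reported here. Alternatives were other scalings, no filter, DESeq2, a replicate block, a joint fit of 16 libraries, a fold minimum of 0.58, mitochondrial genes left out, and each library left out in turn. Coordinates are GRCm38 (GENCODE M21, matched by gene identifier for 15972 of the tested genes), and promoters are RefSeq.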

Additional observations from a re-analysis of the deposited data

Results flagged for a closer look

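A library far from the other 3 of its group was found in 29 of 314 groups checked (9.24%). The cutoff gives about 1 in 20 for independent, normally distributed values. Genes of the same libraries are not independent, so that 9.24% cannot be set against that rate. Whole muscle replicate 1 was the highest library in 10 of them. Its levels in RPM were 24.4 for Fos, 6.89 for Atf3, 0.018 for Egr4 (1 count), 29.4 for Btg2, 1.97 for Spp1, 2.65 for Ccr2, 24.4 for Dkk3, 113 for Fndc5, 283 for Hbb-bs and 287 for Ighm. Replicate 1 of the fibers was likewise the highest for Hbb-bs at 416.5 RPM, Ighm at 36.7 RPM and Pdk4 at 664 RPM.

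Fiber replicate 3 was the highest library for 7 genes, all of them markers of matrix, tendon or immune cells. Its levels in RPM were 83.95 for Col12a1, 25.3 for Postn, 861 for Thbs4, 49.4 for Tnc, 135 for Cilp, 16.9 for Cd74 and 1.86 for Lcn2. Fiber replicate 2 was the highest for Cldn5 at 69.8 RPM, Ttn at 9825 RPM, Sgcd at 30.9 RPM and Ppargc1b at 21.4 RPM. Fiber replicate 4 was the lowest for Tgfb1 at 7.46 RPM and the highest for Slc16a3 at 325 RPM. Whole muscle replicate 4 was the highest for Pecam1 at 82.6 RPM and Ciart at 2.02 RPM and the lowest for Myh8 at 444 RPM.

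The difference between the preparations depended on surgery for 12 of 28 followed genes by the interaction test of edgeR (adjusted p below 0.05), against 18.9% of all tested genes. The 28 were chosen with earlier results of these data known, so that 12 of 28 cannot be read as a rate. It was smaller after DEN by log2 values of -4.31 for Junb, -4.25 for Mt2, -3.88 for Atf3 and -2.56 for Hspa1b. It shifted toward whole muscle by -1.14 for Tgfb1, -0.76 for Pvalb and -0.67 for Myh4. It shifted toward fibers by 2.40 for Myh7, 1.601 for Ostn, 1.17 for Pax7, 1.02 for Csf1r and 0.58 for Pecam1.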

How the results depend on the processing

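No tested alternative reversed the sham difference of a named gene or a sham call, and between 85.7% and 99.4% of the 7809 sham calls were also called in the same direction in each alternative other than the fold minimum. The interactions of single genes with surgery were not checked in any alternative, only the number of genes called. A minimum log2 fold change of 0.58 left 4138 calls, of which 1405 were lower and 2733 higher. Leaving out 1 library gave 6921 to 7709 sham calls, with 3663 to 4100 higher and 3258 to 3633 lower, and 8882 to 9296 DEN calls. The number of genes whose preparation difference shifted toward whole muscle after DEN fell from 2066 to 1173 with total counts only and to 1227 with no filter on low counts, and the cause was not tested. Other sham counts ran from 7165 with total counts only to 9158 with all 16 libraries in 1 fit, and DESeq2 called 8433. With the replicate number as a block there were 8031 sham calls, 7463 of them shared, and 9392 DEN calls. Deviations of same-numbered fiber and whole muscle libraries correlated at 0.207, 0.226, -0.077 and 0.095, and those of differently numbered libraries at -0.235 to 0.126. The values 0.207 and 0.226 lay above every differently numbered pair, whereas -0.077 and 0.095 lay within their range. The check therefore did not decide whether the numbers are pairs. The main fit left the libraries unpaired because the sources used here do not state the pairing. Of 136 named genes that were called, 8 lost the call in an alternative other than the fold minimum (Tnmd, Pax7, Cldn5, Hspg2, Lcn2, Cxcl12, Cdh15 and Myh11), and 21 were below that minimum. Of 21 that were not called, 8 gained a call, Myh4 (with DESeq2), Spp1 and Tgfb1 among them. The medians of the endothelial, matrix, lymphocyte, neutrophil, erythroid, mitochondrially encoded and cell cycle lists changed sign in at least 1 alternative. Depth limits the genes near 0 in whole muscle, such as Il6 with 7 counts.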

Other observations

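The genes in this section lay outside the lists or the rule for named genes and were chosen after their values were seen, so that they are given as values. Selp, Icam1 and Adamts4 were higher in fibers. Selp (P-selectin), an adhesion molecule of endothelium and platelets, was at 102, 95.3, 108 and 46.2 RPM in the 4 fiber libraries against 1.39, 0.988, 1.25 and 1.59 RPM in whole muscle, log2 fold change 6.04 ± 0.31 (SE), adjusted p = 6.81e-07. Icam1, a ligand of leukocyte integrins, was at 121, 107, 146 and 62.1 RPM against 3.71, 3.01, 2.65 and 3.41 RPM. Adamts4, a protease that cleaves aggrecan, was at 109, 116, 118 and 51.0 RPM against 1.66, 1.03, 1.43 and 1.11 RPM. No fiber library overlapped a whole muscle library for these genes.

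Amd1, Amd2 and Smox, which encode enzymes of polyamine metabolism, were lower in fibers. Amd1, the decarboxylase that supplies spermidine synthesis, was at 328, 261, 316 and 286 RPM against 999, 892, 1060.1 and 835 RPM, log2 fold change -1.69 ± 0.12 (SE), adjusted p = 3.98e-06. Its near-identical copy Amd2 was at 60.2, 47.7, 57.4 and 53.4 RPM against 182, 166, 195 and 155 RPM, and the split of reads between the copies is uncertain. Smox, which oxidizes spermine and is abundant in fast muscle, was at 204, 177, 219 and 258 RPM against 444, 393, 514 and 470.4 RPM, log2 fold change -1.11 ± 0.13 (SE), adjusted p = 7.13e-05.

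Mb, Smyd2 and Neat1 were also lower. Mb (myoglobin), the oxygen store of oxidative fibers, was at 1051, 1737, 1522 and 1405 RPM against 3029, 2911, 2366 and 3316 RPM, log2 fold change -1.06 ± 0.14 (SE), adjusted p = 0.000161. Smyd2, a methyltransferase that binds titin through HSP90, was at 65.8, 64.2, 73.9 and 78.4 RPM against 254, 260.2, 289 and 294 RPM. Neat1, the noncoding RNA of nuclear paraspeckles, was at 246, 224, 235 and 211 RPM against 843, 771, 849 and 688 RPM. Peg3, a paternally expressed zinc finger gene of stem cells, lay in the other direction at 135, 149, 173 and 156 RPM against 16.9, 15.1, 19.2 and 20.1 RPM, log2 fold change 3.07 ± 0.10 (SE), adjusted p = 4.6e-08.

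Irx5, Irx3os and Sim1, which were on no list, also differed. Irx5, an Iroquois homeobox factor, was at 3.11, 4.69, 3.80 and 3.69 RPM in fibers against 0.108, 0.0420, 0.0321 and 0.116 RPM in whole muscle, log2 fold change 5.60 ± 0.27 (SE), adjusted p = 5.94e-07. Irx3os, a transcript opposite the neighbouring Irx3, lay in the other direction at 0.949, 0.986, 0.868 and 0.941 RPM against 4.54, 4.83, 4.91 and 5.33 RPM. Sim1, a relative of Sim2, was lower like it, at 0.413, 1.01, 1.18 and 0.887 RPM against 3.79, 6.10, 3.98 and 4.85 RPM, log2 fold change -2.45 ± 0.25 (SE), adjusted p = 4.07e-05.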
